A study of Mus musculus with 11 samples.

Results

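VHL and cereblon are the substrate receptors of a pair of E3 ubiquitin ligases that small-molecule degraders borrow. The 9 genes described here encode these receptors (Vhl and Crbn), their cullin scaffolds (Cul2, Cul4a and Cul4b), the adaptor Ddb1, the RING subunit Rbx1, and the transcription factors Ikaros (Ikzf1) and Aiolos (Ikzf3), which drug-bound cereblon can take as substrates. They were chosen by gene symbol from the 14604 genes listed in the deposited values, and all 9 were found and passed the filter on low values that left 13897 genes for testing.

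RNA of sorted regulatory T cells (Tregs) was sequenced in 11 libraries from mice bearing MC38 tumors, a graft of a mouse colon adenocarcinoma cell line. By the labels, 3 spleen and 3 tumor libraries came from CD177flox/flox mice, called wild type here. A further 3 spleen and 2 tumor libraries came from CD177flox/flox/FOXP3-CreYFP mice, called knockout here, in which Cre under the Foxp3 promoter acts in Tregs. All groups therefore carry floxed Cd177, and no compound is named in the labels of any library. The methods state that live CD4+ GITR+ CD25+ cells were sorted and that spleens came from the same tumor-bearing mice. The age of the mice is not in the labels. No row for Cd177 is present in the values, which leaves the genotype labels without a check on the targeted gene. Nothing in the labels says whether the libraries of a group came from separate animals, and the p-values measure the spread between these libraries.

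In cells, the VHL complex (VHL, elongins B and C, CUL2 and RBX1) binds hypoxia-inducible factor alpha subunits once prolyl hydroxylases have modified them, and marks them for the proteasome. Cereblon works with DDB1, a CUL4 scaffold and RBX1. Thalidomide analogs bound to human cereblon recruit IKZF1 and IKZF3 through their second zinc finger, while mouse cereblon differs from the human protein at a residue that this degradation needs. The study used 2 degraders of BCL-XL, DT2216, which recruits VHL, and PZ15227, which recruits cereblon. The libraries sorted from tumors as tumor-infiltrating Tregs (TI-Tregs) were compared with those sorted from spleens for the RNA of each ligase subunit, and each value is that of the whole library, in which markers of other cells were high as well (given with the library totals).

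The coding bases of the second zinc finger of Ikzf1 and its relatives are shown because this finger is the stretch that drug-bound human cereblon reads. They span 22 codons in exon 5 of 8, from the codon before the first cysteine to the last histidine, and were read from GENCODE release M21 transcripts on GRCm38 (mm10). The Ikzf1 stretch is at chr11:11754021-11754086 on the plus strand. Those of Ikzf3 (chr11:98488940-98489005), Ikzf2 (chr1:69570581-69570646) and Ikzf4 (chr10:128640229-128640294) are on the minus strand. Each is written 5′ to 3′, and capitals mark bases that differ from Ikzf1.
Ikzf1: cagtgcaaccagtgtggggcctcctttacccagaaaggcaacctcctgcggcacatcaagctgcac
Ikzf3: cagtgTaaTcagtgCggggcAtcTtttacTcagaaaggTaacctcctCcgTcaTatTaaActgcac
Ikzf2: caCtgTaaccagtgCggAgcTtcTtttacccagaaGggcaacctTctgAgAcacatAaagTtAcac
Ikzf4: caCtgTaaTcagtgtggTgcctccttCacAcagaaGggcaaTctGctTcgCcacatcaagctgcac
Ikzf3 differed from Ikzf1 at 12 of these 66 bases and encoded 0 different residues. Ikzf2 differed at 13 bases and Ikzf4 at 11, and each encoded 1 different residue.

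The bases upstream of 3 genes are shown because the receptors Vhl and Crbn and the scaffold Cul4a behaved differently between tissues. They come from the RefSeq promoter table (build GRCm38.p6), from which windows of 7 of the 9 genes were taken and 5 were kept. Cul2 is not among these 5, and its upstream bases are not described here. Each window runs up to the base before both the RefSeq and the GENCODE start. Capitals mark the letters ACGTG or GCGTG on either strand, the core that hypoxia-inducible factors bind, and matches may overlap. The windows are Vhl chr6:113623744-113623958 (plus strand), Crbn chr6:106800088-106800337 (minus strand) and Cul4a chr8:13105373-13105620 (plus strand), each written 5′ to 3′.
Vhl: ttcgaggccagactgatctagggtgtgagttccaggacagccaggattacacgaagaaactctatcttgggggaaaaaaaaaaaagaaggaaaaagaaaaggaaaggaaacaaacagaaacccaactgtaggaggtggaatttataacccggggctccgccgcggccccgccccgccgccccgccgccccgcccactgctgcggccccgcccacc
Crbn: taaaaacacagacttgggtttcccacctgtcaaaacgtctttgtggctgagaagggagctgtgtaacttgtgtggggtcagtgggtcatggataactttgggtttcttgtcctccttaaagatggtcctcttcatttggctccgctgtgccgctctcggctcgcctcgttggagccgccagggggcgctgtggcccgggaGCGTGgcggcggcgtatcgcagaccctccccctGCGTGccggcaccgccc
Cul4a: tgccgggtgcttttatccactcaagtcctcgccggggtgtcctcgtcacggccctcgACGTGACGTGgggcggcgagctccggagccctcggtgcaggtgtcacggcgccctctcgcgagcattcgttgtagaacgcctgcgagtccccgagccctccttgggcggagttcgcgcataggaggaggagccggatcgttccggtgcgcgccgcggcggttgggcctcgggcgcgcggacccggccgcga
The core was found 0 times in the Vhl window, 2 times in that of Crbn and 2 times in that of Cul4a. It was also found 2 times upstream of Rbx1 and 0 times upstream of Cul4b. Of 32851 RefSeq windows of 250 bases, 38.6% held at least 1 match, so that a match is common and is only a description.

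The deposited values are log2(n + 1), where n is the authors' estimated count after processing in sleuth, of which the scaling is not stated. Over a library, n summed to between 712832 and 844331 in spleen and between 1103159 and 1304548 in tumor. The study's methods state an approximate read depth, and the depth of each single library is not known here. The median of all tested genes was 0.08 higher in tumor as deposited and lower by 0.44 (-0.44) after setting library totals equal, so the differences of the 9 genes and the counts of the ligase lists are also given on that scale where calls change. The tumor libraries numbered 1 of each genotype lay nearer to the spleen libraries than the other tumor libraries did: their median absolute difference over genes from a spleen library was 0.56 to 0.62, against 0.68 to 0.72 for the other 3. Myeloid markers were higher in tumor in 18 of 18 genes (limma with Benjamini-Hochberg adjustment), with a summed level (log2) of 8.40 to 9.36 in spleen and 13.78 to 14.29 in tumor, and Lyz2 rose from 4.75 to 12.35. Of 6 fibroblast markers 5 were higher (summed level 2.34 to 2.64 in spleen, 9.21 to 10.36 in tumor; Col3a1 at 8.84 in tumor), and of 10 CD8 and NK cell markers 7 were higher and 1 lower (5.60 to 6.39 against 7.23 to 9.08; Nkg7 at 6.84). Of 20 T-lineage genes 0 were higher and 18 lower, with a median difference of -0.86 and a summed level of 11.62 to 11.75 in spleen and 10.50 to 11.27 in tumor (Cd2 at 8.01). Among 7 B cell markers 4 were lower (7.50 to 8.61 against 5.22 to 6.43; Ighm at 5.36), among 7 erythroid and platelet genes 1 was higher and 6 lower (6.56 to 9.14 against 7.99 to 9.29; Pf4 at 8.69), and among 5 epithelial genes 1 was higher and 2 lower (3.49 to 4.36 against 4.27 to 5.06 over 6 listed genes; Cdh1 at 4.08). No marker was at exactly 0, but n was below 1 in at least 1 spleen library for 5 of the 6 fibroblast markers. It was also below 1 in a library for 2 B cell markers in spleen and 4 in tumor. For epithelial markers these counts were 4 in spleen and 3 in tumor, and for CD8 and NK cell markers 2 and 1. The same held for 2 erythroid and platelet genes and 1 fibroblast marker in tumor, and for 1 myeloid marker in spleen. Of 8 Treg genes 4 were higher and 3 lower, or 3 and 4 with equal totals (9.84 to 10.13 against 10.04 to 10.83; Ctla4 at 8.72). Foxp3 was 6.35 ± 0.30 (SD, n = 6) for spleen and 5.50 ± 0.55 (SD, n = 5) for tumor, a difference of -0.85 (adjusted p = 0.0036). Tnfrsf18, which encodes the sort marker GITR, rose by 1.08, and Cd4 fell by 0.42 (-0.42). Il2ra, which encodes CD25, differed by -0.27 (adjusted p = 0.12). The part of these other cells in the differences below was not tested, and in bulk RNA fewer cells of a type and less RNA per cell cannot be told apart.

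Of the 9 genes, 7 were called different between the tumor and spleen libraries, 4 higher (Vhl, Cul2, Ddb1 and Rbx1) and 3 lower (Cul4a, Ikzf1 and Ikzf3), while Crbn and Cul4b were not called (limma, Benjamini-Hochberg adjusted p over all tested genes). Over all tested genes 78.9% were called, 43.1% higher and 35.9% lower, so that neither share of the 9 stands far from the background. For the same 7 genes the ranges of the tissues lay apart, against 63.5% of all tested genes. With equal library totals 2 genes were called higher (Cul2 and Ddb1, against 23.6% of all tested genes) and 5 lower (Crbn, Cul4a, Cul4b, Ikzf1 and Ikzf3, against 56.3%). After quantile normalization 4 were higher and 5 lower, against 33.3% and 45.8% of all tested genes. Leaving out both tumor libraries numbered 1, an alternative chosen after seeing the data, gave the same 7 called genes, 4 higher (against 43.6% of all tested genes) and 3 lower (against 35.6%).

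**Figure D1:**
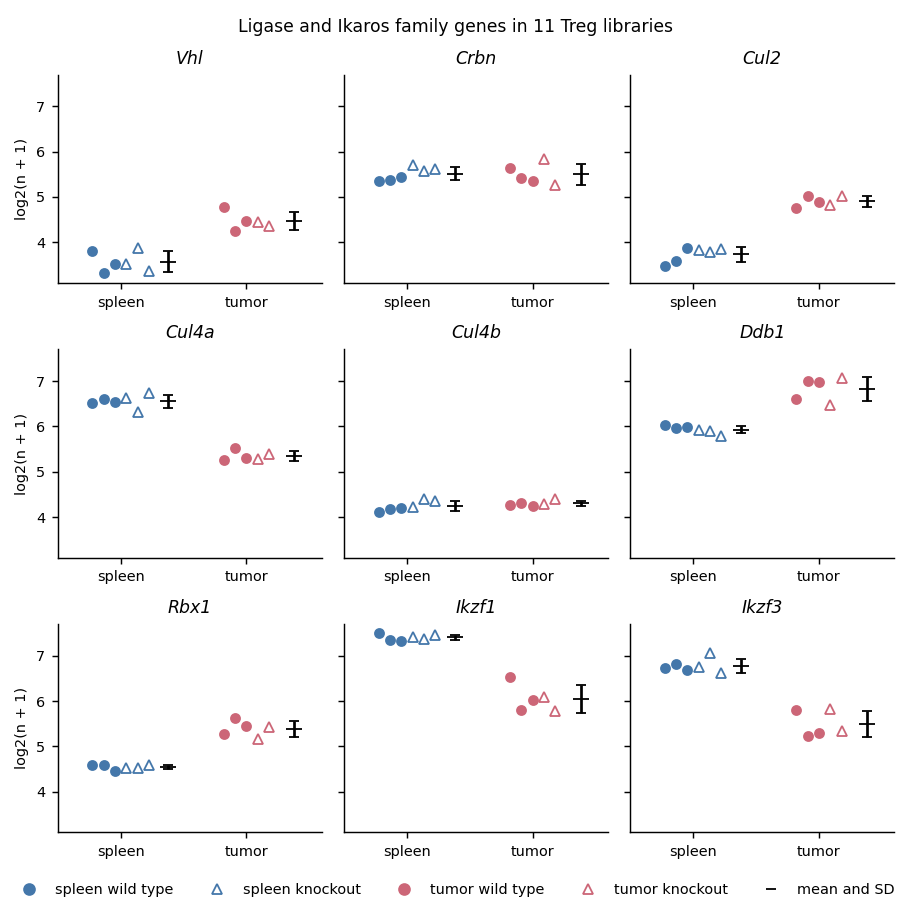
Values of the 9 genes as log2(n + 1) in each of the 11 libraries, spleen in blue and tumor in red, with filled circles for wild type and open triangles for knockout; the black mark and bar are the mean and SD of each tissue. The libraries of the 2 tissues separate for 7 genes and overlap for Crbn and Cul4b.

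Vhl, the receptor of the ligase that DT2216 recruits, was higher in the tumor libraries. Its log2(n + 1) ran from 3.31 to 3.88 in the 6 spleen libraries (median 3.52) and was 4.78, 4.25 and 4.47 in the wild-type tumor libraries and 4.44 and 4.37 in the knockout ones. Each tumor library lay above each spleen library, with a gap of 0.37. The means were 3.57 ± 0.23 (SD, n = 6) and 4.46 ± 0.20 (SD, n = 5), a difference of 0.90 (95% interval 0.63 to 1.16), which corresponds to 1.86 times the value of n + 1. The adjusted p was 2.06e-05 from limma and the exact two-sided permutation p over all 462 assignments of libraries to tissue was 0.0043, the smallest that the design allows. With equal library totals the difference was 0.31 (95% interval 0.0027 to 0.61) and no longer passed (adjusted p = 0.060; range over all alternatives 1.35e-05 to 0.11). Relative to the median of all tested genes it was 0.81 as deposited and 0.75 with equal totals. Vhl lies on chromosome 6 from 113623959 to 113631633 on the plus strand, and its processed pseudogene Vhl-ps1 is not among the genes listed, so that reads shared with it cannot be told apart here.

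Crbn, the receptor that PZ15227 recruits, showed a different pattern. It ran from 5.36 to 5.71 in spleen (median 5.51) and was 5.63, 5.42 and 5.35 in wild-type and 5.84 and 5.26 in knockout tumor libraries. The tumor values bracket the spleen values on both sides. The means were 5.52 ± 0.14 (SD, n = 6) and 5.50 ± 0.23 (SD, n = 5), and the difference of -0.01 had a 95% interval of -0.24 to 0.21 (adjusted p = 0.90 from limma, exact two-sided permutation p = 0.90). With equal library totals Crbn was called lower, at -0.63 (adjusted p = 2.55e-04; range over all alternatives 2.55e-04 to 1), and after quantile normalization it was called lower too, at -0.33. Relative to the median of all tested genes it was at -0.10 as deposited and -0.19 with equal totals. The tumor libraries numbered 1 held the highest 2 of its tumor values, and without both the difference was -0.17 (adjusted p = 0.084 from limma). Crbn lies on chromosome 6 from 106780201 to 106800077 on the minus strand. Its exons share 144 bases with Trnt1 on the opposite strand, and since the use of strand in counting is not stated, its value is uncertain to that extent. Trnt1 differed by -0.42 between the tissues.

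The difference of Vhl and Crbn within a library, in which a common scaling factor largely cancels, moved between the tissues. It ran from -2.25 to -1.56 in spleen and from -1.41 to -0.85 in tumor, with no overlap. The means were -1.95 ± 0.28 (SD, n = 6) and -1.04 ± 0.24 (SD, n = 5), a shift of 0.91 toward Vhl (exact two-sided permutation p = 0.0043, adjusted p = 0.0072 over the 5 such differences computed). The sign of the difference itself is not read, since levels of unlike genes are compared only per length. Under each alternative the shift was at least 0.73.

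The cullin scaffolds Cul2 and Cul4a moved in opposite directions, while the third, Cul4b, was not called as deposited. Cul2, the scaffold of VHL, ran from 3.49 to 3.87 in spleen (median 3.81) and was 4.76, 5.02 and 4.89 in wild-type and 4.82 and 5.02 in knockout tumor libraries. All tumor libraries were at least 0.90 above the highest spleen library. The means were 3.74 ± 0.16 (SD, n = 6) and 4.90 ± 0.12 (SD, n = 5), and the rise of 1.17 (95% interval 0.97 to 1.36) had an adjusted p of 8.45e-08 in limma. It was the largest rise among the 9 genes as deposited and remained called under each alternative run, with 0.57 after equal library totals.

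Cul4a, a scaffold of cereblon, fell. It ran from 6.31 to 6.73 in spleen (median 6.57) and was 5.25, 5.52 and 5.30 in wild-type and 5.27 and 5.38 in knockout tumor libraries. The highest tumor library was 0.80 below the lowest spleen library. The means were 6.56 ± 0.14 (SD, n = 6) and 5.34 ± 0.11 (SD, n = 5), a difference of -1.21 (95% interval -1.38 to -1.05, adjusted p = 1.41e-08 from limma), so that n + 1 in tumor was 0.431 times its value in spleen. The difference was -1.83 with equal library totals. Cul4a lies on chromosome 8 from 13105621 to 13147940 on the plus strand.

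Cul4b, the paralogous scaffold on the X chromosome (38533274 to 38576196, minus strand), overlapped between the tissues. It ran from 4.11 to 4.40 in spleen (median 4.22) and was 4.26, 4.31 and 4.25 in wild-type and 4.29 and 4.40 in knockout tumor libraries. Its spread was among the narrowest of the 9 genes in tumor. The difference was 0.05 (95% interval -0.10 to 0.21, adjusted p = 0.48 from limma). The sign turned when libraries were quantile normalized (-0.19), centred on their medians (-0.16) or set to equal totals (-0.54), and Cul4b was called lower in these 3 (adjusted p over all alternatives 1.81e-04 to 1). Relative to the median of all tested genes it was at -0.03 as deposited and -0.10 with equal totals.

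Within libraries, Cul2 minus Cul4a moved from -2.82 ± 0.20 (SD, n = 6) for spleen to -0.44 ± 0.05 (SD, n = 5) for tumor. This shift of 2.38 was the largest of the 5 differences computed (exact two-sided permutation p = 0.0043, adjusted p = 0.0072), and it stayed between 2.11 and 2.57 under the alternatives. Cul4a minus Cul4b moved from 2.31 ± 0.20 (SD, n = 6) to 1.04 ± 0.09 (SD, n = 5), a shift of -1.27 with the same p-values. The paralogs of the cereblon scaffold thus changed unequally.

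**Figure D2:**
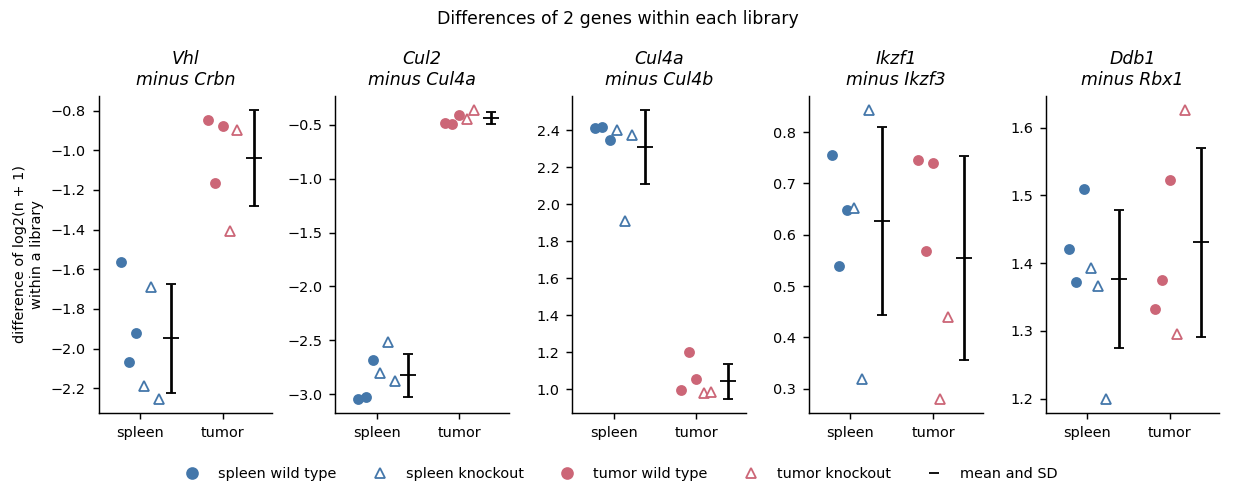
Difference of 2 genes in log2(n + 1) within each library for 5 pairs, with a separate vertical scale for each pair; colors and symbols mark tissue and genotype, and the black mark and bar are the mean and SD. Tumor and spleen libraries separate for the first 3 pairs, by 2.38 on average for Cul2 minus Cul4a, and overlap for the last 2.

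Ddb1, which links CUL4 to cereblon and other receptors, rose. It ran from 5.79 to 6.02 in spleen (median 5.93) and was 6.60, 6.99 and 6.97 in wild-type and 6.47 and 7.07 in knockout tumor libraries. The 2 tumor libraries numbered 1 were the lowest of the 5, and all 5 lay above spleen. The means were 5.93 ± 0.08 (SD, n = 6) and 6.82 ± 0.27 (SD, n = 5), a difference of 0.89 (95% interval 0.67 to 1.12, adjusted p = 4.28e-06 from limma). It was 0.27 with equal library totals and was still called. Ddb1 lies on chromosome 19 from 10605327 to 10629819 on the plus strand and shares 328 exon bases with Tkfc on the opposite strand, which makes its value uncertain to that extent. Tkfc differed by 0.23 (adjusted p = 0.068 from limma).

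Rbx1, the RING subunit that both ligases share and that binds the charged E2 enzyme, ran from 4.47 to 4.60 in spleen (median 4.56) and was 5.26, 5.62 and 5.45 in wild-type and 5.17 and 5.44 in knockout tumor libraries. Here too the tumor libraries numbered 1 were the lowest of the tumor group. The means were 4.55 ± 0.05 (SD, n = 6) and 5.39 ± 0.17 (SD, n = 5), and the rise of 0.84 (95% interval 0.67 to 1.01) had an adjusted p of 4.78e-07 in limma. With equal library totals it was 0.23 and did not pass (adjusted p = 0.057; range over all alternatives 1.51e-07 to 0.057). Rbx1 lies on chromosome 15 from 81466296 to 81476369 on the plus strand, and its processed pseudogene Rbx1-ps is not among the genes listed. Ddb1 minus Rbx1 within a library was 1.38 ± 0.10 (SD, n = 6) for spleen and 1.43 ± 0.14 (SD, n = 5) for tumor, a shift of 0.05 (exact two-sided permutation p = 0.48) that turned to -0.13 after quantile normalization.

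Both neosubstrate genes were lower in the tumor libraries, in which 18 of 20 T-lineage genes were lower too. Ikzf1 encodes Ikaros, a zinc finger transcription factor of lymphocytes. It ran from 7.33 to 7.49 in spleen (median 7.40) and was 6.54, 5.79 and 6.03 in wild-type and 6.10 and 5.77 in knockout tumor libraries. The tumor libraries were lower and more spread out than those of spleen. The means were 7.41 ± 0.06 (SD, n = 6) and 6.05 ± 0.31 (SD, n = 5), a difference of -1.36 (95% interval -1.61 to -1.11, adjusted p = 2.17e-07 from limma), so that n + 1 in tumor was 0.390 times its value in spleen. It was -1.98 with equal library totals. Ikzf1 lies on chromosome 11 from 11685003 to 11772926 on the plus strand.

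Ikzf3 encodes Aiolos, a relative of Ikaros. It ran from 6.62 to 7.06 in spleen (median 6.75) and was 5.80, 5.23 and 5.29 in wild-type and 5.82 and 5.33 in knockout tumor libraries. The values again lay apart from those of spleen, with a gap of 0.80. The means were 6.78 ± 0.15 (SD, n = 6) and 5.49 ± 0.29 (SD, n = 5), a difference of -1.29 (95% interval -1.55 to -1.02, adjusted p = 5.77e-07 from limma), or -1.91 with equal library totals. Ikzf3 lies on chromosome 11 from 98464902 to 98546031 on the minus strand. Ikzf1 minus Ikzf3 within a library was 0.63 ± 0.18 (SD, n = 6) for spleen and 0.55 ± 0.20 (SD, n = 5) for tumor, a shift of -0.07 (exact two-sided permutation p = 0.54, adjusted p = 0.54). The tumor libraries numbered 1 held the highest Ikzf1 and Ikzf3 values of the tumor group, and also its highest summed T-lineage levels (11.27 in wild type and 11.10 in knockout, against 10.50 to 10.69 in the other 3) and its lowest summed myeloid levels (13.78 and 13.91, against 14.14 to 14.29). The part of these in the result was not tested. Without both libraries the differences were -1.54 for Ikzf1, -1.50 for Ikzf3, 1.08 for Ddb1 and 0.95 for Rbx1, all still called.

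**Figure D3:**
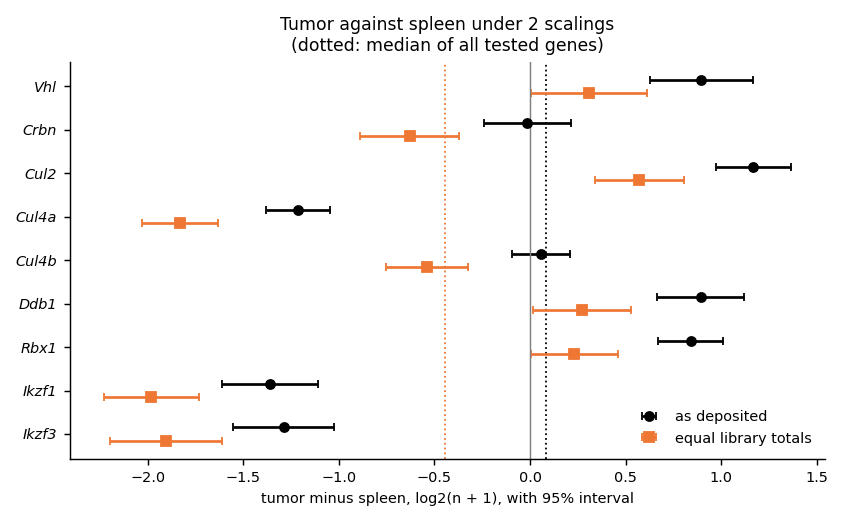
Tumor minus spleen in log2(n + 1) for the 9 genes as deposited (black circles) and after library totals were set equal (orange squares), with 95% intervals; dotted lines mark the median of all tested genes under each scaling. Equal totals moved every gene to the left, Crbn from -0.01 to -0.63 and Vhl from 0.90 to 0.31.

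Within each genotype the same 7 genes were called between the tissues, in wild-type mice (70.5% of all tested genes called) and in knockout mice (65.7% called). In wild-type mice the differences ranged from -1.31 (Ikzf3) to 1.25 (Cul2), and in knockout mice from -1.48 (Ikzf1) to 1.09 (Cul2). The difference of Vhl was 0.96 in wild type and 0.82 in knockout, and that of Crbn 0.07 and -0.08. No call was made for any of the 9 genes in the interaction of tissue with genotype, for which limma called 0% of all tested genes, 0 of 13897, with 383 at an unadjusted p below 0.05, of which 0 were among the 9. The interaction terms lay between -0.21 (Ikzf1) and 0.07 (Ikzf3).

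Knockout was compared with wild type in each tissue. By the labels only the knockout mice carry FOXP3-CreYFP, so deletion of Cd177 and presence of Cre-YFP cannot be told apart. In spleen limma called 0% of all tested genes, with 281 at an unadjusted p below 0.05 and 0 of the 9 genes among them. The largest difference among the 9 was that of Crbn, at 5.40 ± 0.05 (SD, n = 3) for wild-type and 5.63 ± 0.07 (SD, n = 3) for knockout libraries, or 0.23 (95% interval -0.07 to 0.53, adjusted p = 0.9997 from limma). This interval uses 1 spread shared by the spleen and tumor groups. In tumor the SD of Crbn was 0.15 (n = 3) in wild type and 0.41 (n = 2) in knockout. The interval is thus wider than the spleen libraries alone would give, and it does not show that the genotypes are alike in spleen. The 2 genotypes had separate ranges in spleen for 3 of the 9 genes (Crbn and Cul4b higher, Ddb1 lower in knockout), against 9.17% of all tested genes, and 3 libraries against 3 cannot reach an exact two-sided permutation p below 0.10. In tumor limma called 0.0072% of all tested genes, which is the predicted gene Gm45837 (named because the count is 1; 2.44 in wild type and 0.57 in knockout), and none of the 9. Their differences there lay between -0.19 (Ikzf1) and 0.14 (Ikzf3), with intervals that reached at most 0.57 above and 0.59 below no difference (-0.59). These intervals allow changes of that size in either direction.

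**Figure D4:**
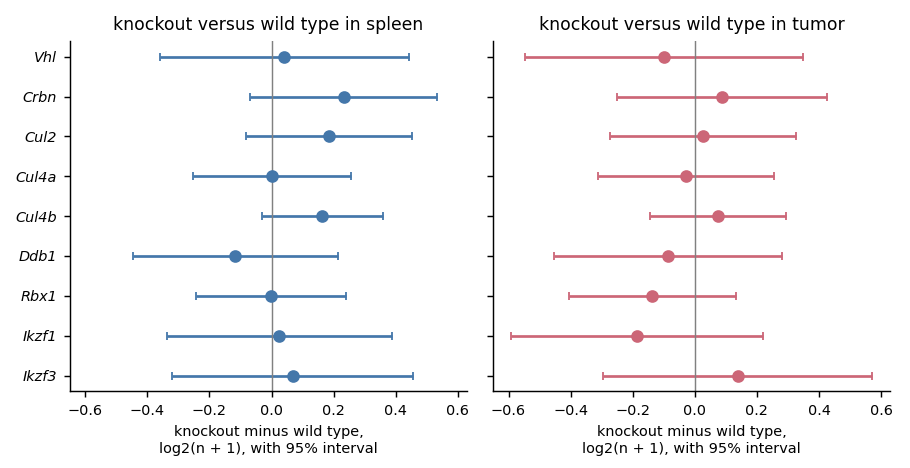
Knockout minus wild type in log2(n + 1) for the 9 genes in spleen (left, 3 libraries against 3) and tumor (right, 2 against 3), with 95% intervals from limma. Each interval includes 0 and uses 1 spread shared by the spleen and tumor groups.

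The other genes of the 2 ligase systems were described by list, each set beside the background of 43.1% higher and 35.9% lower calls and the median difference of 0.08 over all tested genes. Among the partners of VHL and the hypoxia-inducible factor axis, 6 of 10 genes were higher and 3 lower, with a median of 1.09 (0.46 with equal library totals, where 5 were higher and 4 lower). The elongin genes Elob (1.36) and Eloc (0.88), whose products join VHL to CUL2, and Hif1a (1.29), the best known VHL substrate, rose. With equal totals Eloc was at 0.26 and did not pass (adjusted p = 0.054 from limma), and these 3 are named for their role and after their values were seen. The largest rises in the list were those of the prolyl hydroxylase genes Egln3, from 1.94 ± 0.18 (SD, n = 6) to 5.44 ± 0.49 (SD, n = 5), and Egln1, from 4.27 to 5.79. The largest falls were those of Hif3a (-0.93) and Hif1an (-0.62), which encode a further alpha subunit and an asparaginyl hydroxylase. Of 10 other CUL2 receptor genes 5 were higher and 3 lower (median 0.13), and with equal library totals 3 were higher and 6 lower (median -0.47). The named genes are Fem1b (1.29), Fem1c (1.01), Zer1 (-1.34) and Zyg11b (-0.47).

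Of 18 genes listed as other CUL4 receptors, with the DDB1-associated gene Dda1 among them, 2 were higher and 11 lower, with a median of -0.60. With equal library totals 0 were higher and 17 lower (median -1.17 beside -0.44 over all genes). Dcaf17 fell from 6.94 ± 0.12 (SD, n = 6) to 5.01 ± 0.14 (SD, n = 5) and Ddb2, a receptor of UV-damaged DNA, from 4.78 to 3.32. Dcaf12 (0.44) and Dcaf13 (0.20) were higher, a direction that neither kept as a call with equal totals, where Dcaf13 was called lower. Among other cullins and the second RING gene 1 of 6 was higher (Cul7, 0.88, a call lost with equal totals at 0.35) and 3 were lower (median -0.18), led by Cul5 (-0.47) and Cul9 (-0.30). With equal totals 0 of these 6 were higher and 5 lower (median -0.79).

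Cullins work only once NEDD8 is attached to them, and the COP9 signalosome takes it off again. Of 13 neddylation genes 6 were higher and 4 lower (median 0.13), but with equal library totals 2 were higher and 8 lower (median -0.30). The named genes are Nedd8 (1.08) and its E2 gene Ube2m (0.93), which rose the most, and Cand2 (-1.02) and Dcun1d4 (-0.80), which fell the most. Of 10 COP9 signalosome genes 7 were higher and 0 lower (median 0.48), led by Cops9 (1.05) and Cops5 (1.04), the latter encoding the subunit that cuts NEDD8 off. With equal library totals 3 were higher and 3 lower, with a median of -0.11. Of 9 tested E2 and ARIH genes, which bring ubiquitin to cullin ligases, 3 were higher and 1 lower (median 0.07), with Ube2d3 (0.87), Ube2l3 (0.80) and Ube2d1 (-0.23). With equal totals 1 was higher and 6 lower (median -0.54), and Ube2l3, at 0.19, was not called. Of 5 genes of the p97 segregase, which unfolds ubiquitin-tagged proteins, 2 were higher (Vcp, 0.68, and Nploc4, 0.40) and 1 lower (Ubxn7, -0.56). With equal totals 0 were higher and 3 lower (median -0.53), and Vcp (0.06) and Nploc4 (-0.21) were not called.

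All 3 other Ikaros family genes had lower means in tumor, and 2 were called. Ikzf2, the gene of the Treg factor Helios, fell from 7.49 ± 0.15 (SD, n = 6) to 6.40 ± 0.46 (SD, n = 5), and Ikzf4 fell from 4.23 ± 0.19 (SD, n = 6) to 3.55 ± 0.47 (SD, n = 5). Ikzf5 differed by -0.23 (adjusted p = 0.16 from limma), and with equal library totals all 3 were called lower. Of 12 tested genes of other reported cereblon substrates 6 were higher and 5 lower (median 0.12), and with equal totals 4 were higher and 8 lower (median -0.50). Meis2 (1.80), which was near the lower end of the scale in spleen at 0.29, and Rab28 (1.43) rose the most, and the zinc finger genes Zfp692 (-1.43) and Patz1 (-1.35) fell the most. Of 10 genes of other ligases used by degraders 3 were higher and 2 lower (median 0.02), with Fem1b (1.29), Ahr (0.94), Dcaf15 (-0.54) and Rnf4 (-0.51). With equal totals 2 were higher and 7 lower (median -0.60). Fem1b and Dcaf15 also stand in the receptor lists above. Bcl2l1, which encodes the protein that both degraders target, rose from 4.44 ± 0.15 (SD, n = 6) to 6.72 ± 0.09 (SD, n = 5).

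**Figure D5:**
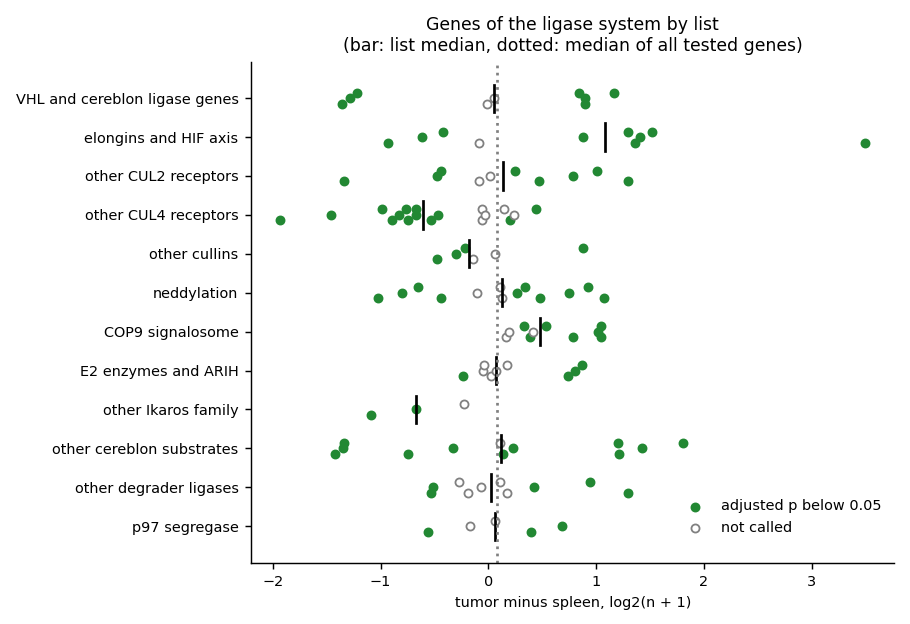
Tumor minus spleen in log2(n + 1) for each tested gene of 12 lists, green where the adjusted p is below 0.05 and open where it is not; bars mark the median of each list and the dotted line the median of all tested genes, 0.08. The elongin and hypoxia-inducible factor list has its median at 1.09 and the list of other CUL4 receptors at -0.60.

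The genes closest in pattern to each receptor were found by the root mean square difference over the 11 libraries, after each gene was centered on its own mean. For Vhl these were Mdga1 (0.14), Nab1 (0.15) and Ndufb7 (0.15), of which Mdga1 had a mean of only 0.38 in spleen and 1.24 in tumor. For Crbn, Zdhhc20 (0.09) and Elf1 (0.11) were among the 3 closest, with tumor means of 5.21 and 6.10 beside spleen means of 5.32 and 6.20. The libraries share their tissue and total within each group, and the list is a description.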

How the data were processed

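Per the labels and the study's methods, the authors sorted Tregs from MC38 tumors and spleens, depleted ribosomal RNA, made libraries with the NEBNext Ultra II kit, pseudoaligned reads with kallisto (version not given in the sources used here) to mm10, summed estimated counts by gene symbol in sleuth 0.30.0 and deposited log2(n + 1) values. Samples were grouped by labelled tissue and genotype. The deposited log2 values were used without further scaling. Genes with a mean of at least 0.5 were tested with limma 3.58.1 in R 4.3.3 (mean-variance trend, two-sided, Benjamini-Hochberg, threshold 0.05), pooling genotypes for tumor against spleen as the study does and using a mean for each of the 4 groups otherwise. All groups share 1 estimate of the spread. Differences of 2 genes within a library were compared by exact permutation (scipy 1.17.1), adjusted over the 5 computed. The fit was tested on simulated data. The values are not raw counts, so no count model, counting interval or floor was used, and the number of libraries limits the precision.

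The genes, lists and tests were chosen with earlier results of these data known. Named from each list were up to 2 called genes with the largest rise and 2 with the largest fall, all genes of lists of 3 or fewer, the marker with the highest tumor mean of each list, and the 3 genes most like Vhl and Crbn, of which 1 is not reported here. Alternatives used a pseudocount of 0.1 or 5, equal library totals, centring on medians or quantiles, and changed the filter, the variance trend, the correction, the covariate, the replicate block and the libraries used. Positions came from GENCODE release M21 (GRCm38). Protein sequences were not used here.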

Additional observations from a re-analysis of the deposited data

Results flagged for a closer look

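Cul4a minus Cul4b within a library was 1.91 in spleen knockout replicate 2, while the other 5 spleen libraries lay between 2.35 and 2.42. This library stood far from its group by Dixon's test. Of 28 groups of values tested in this way 1 was marked, and chance marks about 1 in 20 groups, or 1.4 of 28. Without this library the shift of Cul4a minus Cul4b between tumor and spleen was -1.35 beside -1.27 with it.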

How the results depend on the processing

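Between tumor and spleen, 7 of the 9 genes were called, and 6 to 9 under the other settings and 7 with each library left out. Within wild type, a Bonferroni correction left 2 of 7 called genes, and within knockout it left 1 of 7; leaving out each library in turn gave 7 in wild type and 7 to 8 in knockout. A Bonferroni correction also ended the call of Vhl between the tissues (adjusted p = 0.11). The 3 counts on genotype stayed at 0 under all alternatives run. Crbn turned from -0.01 to 0.0019 with genotype as a covariate and to 0.0041 with the replicate block, lay between -0.10 and 0.044 with each library left out, and was -0.17 without both tumor libraries numbered 1. Cul4b turned to -0.19 (quantile normalization), -0.16 (median centring) and -0.54 (equal library totals). Ddb1 minus Rbx1 turned to -0.13 after quantile normalization. The cause was not tested. Libraries with the same number were not shown to be pairs: the correlation of their deviations from group means exceeded 0.1 in 0 of 5 tumor and spleen pairs and in 2 of 5 wild-type and knockout pairs. These 2 were the pairs within tumor, at 0.45 for number 1 and 0.28 for number 2. The pairs within spleen lay between -0.19 and 0.040. Deviations of the 2 knockout tumor libraries from their mean are equal and opposite, so that the 2 tumor values are not independent. With the replicate block the counts of called genes were those of the fit without it. The sign-flip test over 5 pairs cannot give a p below 0.0625, so that under the block no within-library difference could pass: Vhl minus Crbn was 0.85, Cul2 minus Cul4a 2.37 and Cul4a minus Cul4b -1.26. Where leaving out a library left 1 knockout tumor library, it was assumed to vary like the other groups. The depth in reads of each single library is unknown beyond the approximate depth in the study's methods.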
